A study of Mus musculus with 6 samples.

Results

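The genes described here are 10 members of the NF-κB system, namely the 5 subunits *Nfkb1*, *Nfkb2*, *Rel*, *Rela* and *Relb* and the 5 inhibitory or modulating genes *Nfkbia*, *Nfkbie*, *Nfkbiz*, *Bcl3* and *Tnfaip3*. They were taken by gene symbol from the 54532 genes of the deposited count data, and all 10 were among the 16568 genes with enough counts to be tested. Bulk mRNA was sequenced from lung tissue of 3 GR+/+ and 3 GRdim/dim mice, one library per mouse, to ask how impaired glucocorticoid receptor (GR) signaling changes gene expression in the lung after hemorrhagic shock (HS). In GRdim/dim mice every cell carries a point-mutated *Nr3c1*, the gene of the GR, whose product dimerizes poorly, so a read count per gene cannot check the genotype label.

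Both genotypes were on a mixed 129/SvEv x C57BL/6 background and 10 to 16 weeks old. All mice were anesthetized with sevoflurane, ketamine, midazolam and fentanyl, ventilated, and bled to a mean arterial pressure of 35 mmHg for 1 h. The shed blood, kept fluid with citrate, was then returned, and colloids and norepinephrine were given during 4 h of resuscitation. No library came from an unshocked mouse, so the values describe the lung after HS and not a response to it. Of the mice sequenced, 2 GR+/+ were female and 1 was male, whereas 1 GRdim/dim mouse was female and 2 were male. Total counts were 16361747 to 32082940 per GR+/+ library and 15687734 to 24444604 per GRdim/dim library. The members had 235 to 8405 reads each in a library, fewest in *Nfkbie*. The defining markers of lung were abundant. *Sftpc* (alveolar type 2 cells) averaged 12812 CPM (the count of a gene scaled to a common library total) in GRdim/dim and 11358 CPM in GR+/+ lungs, and *Scgb1a1* (club cells) 23118 and 19696 CPM.

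NF-κB is a family of dimeric transcription factors that induces cytokines, chemokines, adhesion molecules and survival genes. In resting cells the dimers are held in the cytoplasm by IκB proteins, and receptors for interleukin-1, tumor necrosis factor and microbial products activate IκB kinases that mark these inhibitors for degradation. Several inhibitors are themselves transcribed by NF-κB and close a feedback loop, and *Nfkbia* and *Tnfaip3* are also known as genes that glucocorticoids induce.

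The promoters of these genes are where that feedback acts, and short stretches of them are shown for the members in which the letters of the 10-base κB consensus were found. The promoter sequences are those of RefSeq on GRCm38, each running from 250 bases before to 50 bases after a start site, and the consensus was searched on both strands. The table held 10 such windows for 7 members and none for *Nfkb1*, *Relb* or *Nfkbiz*. At least 1 match was present in 8 of the 10 windows and in 6 of the 7 members, the exception being *Rela*. Some *Nfkb2* windows overlap, and 1 match that they share is counted in each, so the windows are not all separate. Of all 32851 promoters of this length in the table, 2779 (8.46%) held a match. Each line gives up to 10 bases on either side of a match, read 5′ to 3′ on the strand of the gene, with the match in capitals.
*Nfkbia*, chr12:55492657-55492686, minus strand: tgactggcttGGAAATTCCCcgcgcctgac
*Tnfaip3*, chr10:19015403-19015432, minus strand: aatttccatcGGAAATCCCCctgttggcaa
*Bcl3*, chr7:19822734-19822763, minus strand: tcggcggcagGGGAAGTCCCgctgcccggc
*Nfkbie*, chr17:45555584-45555613, plus strand: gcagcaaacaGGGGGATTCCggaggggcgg
*Rel*, chr11:23771041-23771071, minus strand: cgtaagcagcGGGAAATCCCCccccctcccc
*Nfkb2*, chr19:46304688-46304718, plus strand: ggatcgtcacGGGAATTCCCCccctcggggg
*Nfkb2*, chr19:46304716-46304745, plus strand: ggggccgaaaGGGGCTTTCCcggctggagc

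Relative to the start site of its window, the match begins at −29 in *Nfkbia*, −12 in *Tnfaip3*, 2 in *Bcl3*, −106 in *Nfkbie*, −92 in *Rel*, and −39 and −11 in *Nfkb2*. In *Rel* and in the first *Nfkb2* stretch, 2 matches overlap by all but 1 base, so 11 letters are capitals. *Nfkb2* had 4 separate matched positions over its 3 windows, and *Tnfaip3* had 2, of which the other begins at −125. These matches are letters in a sequence. No binding was measured here, and the missing match in the *Rela* window says nothing about its regulation.

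For none of the 10 members was a difference detected between GRdim/dim and GR+/+ lungs. In the quasi-likelihood test of edgeR, with *p*-values adjusted over all genes tested by the method of Benjamini and Hochberg, 0 of the 10 were differentially expressed genes (DEGs, which needed an adjusted *p* under 0.05 and a change of more than 0.5 on the log2 scale, up or down), where 28 of all 16568 genes (0.169%) were. At an unadjusted *p* under 0.05, again 0 of 10 members passed, where 1590 genes (9.6%) did, 4.91% higher and 4.68% lower in GRdim/dim. DESeq2 also gave 0 member DEGs, against 1.7% of the 16150 genes it adjusted. At an unadjusted *p* under 0.05 by DESeq2, 0 members passed, where 1851 of all genes did. With fold changes given as GRdim/dim over GR+/+, 8 of the 10 members had log2 values above 0, where 8439 of all 16568 genes had. Under at least 1 other setting the sign turned in *Nfkb1*, *Nfkb2*, *Rela*, *Relb* and *Bcl3*. The median log2 fold change was 0.10 for the members, compared with 0.01 over all genes tested. The median size of the change regardless of direction was 0.14 for the members and 0.21 for all genes. The precision limits these statements. The 95% interval of the fold change ran from 0.643 to 1.14 for *Nfkbia*, from 0.809 to 1.40 for *Nfkb1* and from 0.945 to 2.27 for *Nfkbiz*.

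**Figure D1:**
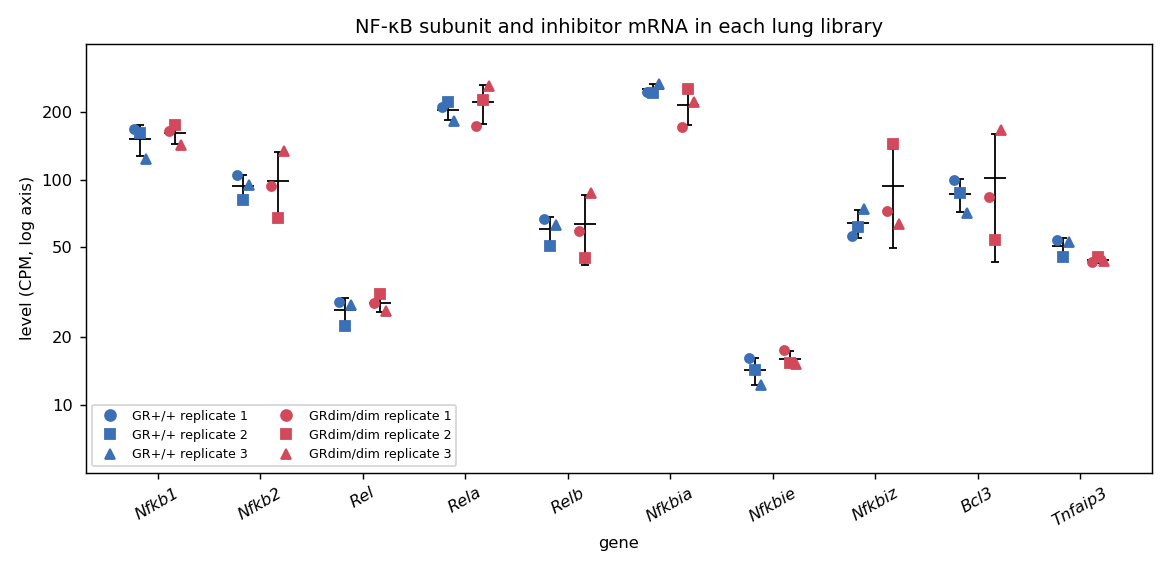
Level of each member in CPM on a log axis, with GR+/+ libraries in blue and GRdim/dim libraries in red, one symbol per replicate, and black bars for the mean ± SD (n = 3). The genotypes overlap in every gene but *Tnfaip3*. The red symbols of *Nfkb2*, *Rela*, *Relb*, *Nfkbia*, *Nfkbiz* and *Bcl3* are more widely spread than the blue ones.

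Among the subunits that pair in the classical pathway, *Rela* encodes p65, which carries a transactivation domain. Its level was 174, 225 and 262 CPM in GRdim/dim replicates 1, 2 and 3 and 211, 222 and 181 CPM in GR+/+ replicates 1, 2 and 3. The lowest and the highest of these 6 libraries were both GRdim/dim. The log2 fold change was 0.10 ± 0.19 (SE, n = 3 per genotype; 95% interval −0.32 to 0.53; edgeR adjusted *p* = 0.928).

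*Nfkb1* encodes p105, the precursor of p50, which is the usual partner of p65. It was at 164, 176 and 142 CPM in the GRdim/dim replicates and at 167, 162 and 124 CPM in the GR+/+ replicates, and replicate 3 was the lowest library in either genotype. The genotype difference was 0.09 ± 0.18 on the log2 scale (95% interval −0.31 to 0.48; edgeR adjusted *p* = 0.936). *Rel* encodes c-Rel, a subunit best known from lymphoid cells, and was the lowest subunit. It had 28.2, 30.9 and 26.0 CPM in GRdim/dim and 28.7, 22.3 and 27.8 CPM in GR+/+ libraries. Here too the genotypes overlapped, with a log2 fold change of 0.11 ± 0.19 (95% interval −0.31 to 0.53; edgeR adjusted *p* = 0.924).

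In the alternative pathway, *Nfkb2* encodes p100, the precursor of p52, and *Relb* encodes the subunit that p52 binds. The *Nfkb2* level was 93.3, 67.3 and 134 CPM in GRdim/dim replicates 1, 2 and 3 against 105, 81.4 and 94.8 CPM in GR+/+. For *Relb* the values were 58.8, 44.7 and 87.1 CPM in GRdim/dim and 66.9, 50.6 and 62.7 CPM in GR+/+. Both genes were highest in GRdim/dim replicate 3 and lowest in GRdim/dim replicate 2, with the GR+/+ libraries in between. Their genotype differences were 0.07 ± 0.24 (95% interval −0.46 to 0.60; edgeR adjusted *p* = 0.963) and 0.08 ± 0.24 (95% interval −0.45 to 0.61; edgeR adjusted *p* = 0.959) on the log2 scale. Without GRdim/dim replicate 3 the sign turned in both, to −0.22 and −0.21.

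**Figure D2:**
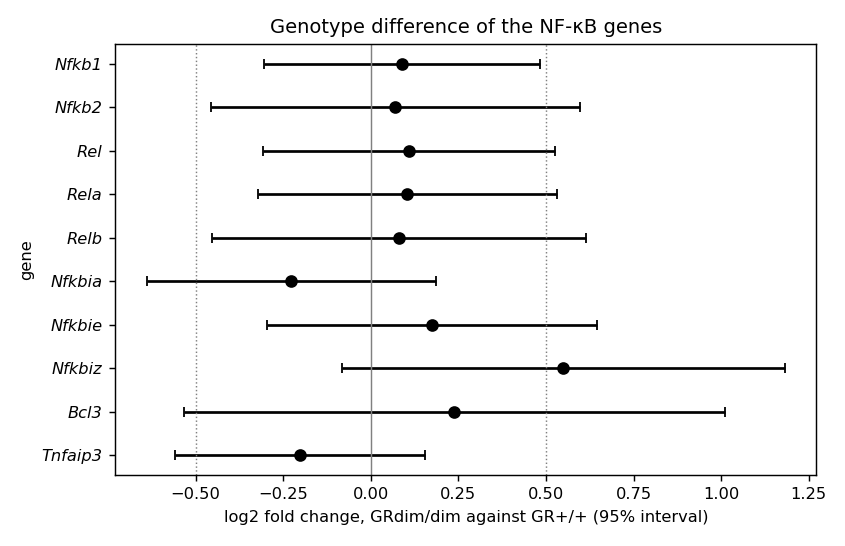
Log2 fold change of each member, GRdim/dim against GR+/+, from edgeR, with its 95% interval as a bar (n = 3 per genotype). The solid line is at 0 and the dotted lines are at the fold-change threshold of 0.5 in either direction, and all 10 intervals include 0.

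Of the classical inhibitors, *Nfkbia* encodes IκBα, which strips p65 dimers from DNA and returns them to the cytoplasm. Its level was 171, 252 and 221 CPM in GRdim/dim replicates 1, 2 and 3 and 245, 242 and 267 CPM in GR+/+. The GR+/+ libraries lay close together, while GRdim/dim replicates 1 and 3 were below all of them and replicate 2 was among them. The log2 fold change was −0.23 ± 0.19 (95% interval −0.64 to 0.18; edgeR adjusted *p* = 0.773), and an exact permutation test over the 6 libraries gave a two-sided *p* of 0.3, where the smallest this design can give is 0.1. The log2 fold change of *Nfkbia* was −0.08 without GRdim/dim replicate 1 and −0.36 without GRdim/dim replicate 2. *Nfkbie* encodes IκBε, a slower feedback inhibitor. It was at 17.5, 15.4 and 15.2 CPM in GRdim/dim and at 16.1, 14.3 and 12.2 CPM in GR+/+ libraries. The values overlapped, with a log2 fold change of 0.17 ± 0.21 (95% interval −0.30 to 0.65; edgeR adjusted *p* = 0.868).

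*Tnfaip3* encodes A20, a ubiquitin-editing enzyme that shuts down signaling above the IκB kinases. It measured 43.0, 45.4 and 43.6 CPM in GRdim/dim replicates 1, 2 and 3 and 53.7, 45.4 and 52.7 CPM in GR+/+. It was the only member whose genotypes did not overlap, and the gap was narrow, between 45.36 CPM in GRdim/dim replicate 2 and 45.45 CPM in GR+/+ replicate 2. Of all genes tested, 14.8% had genotypes that did not overlap, so 1 of 10 members is no more than the background. The log2 fold change was −0.20 ± 0.16 (95% interval −0.56 to 0.16; edgeR adjusted *p* = 0.764; exact permutation *p* = 0.1, two-sided).

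The nuclear IκB proteins bind p50 or p52 dimers on DNA and modulate transcription rather than retain NF-κB in the cytoplasm. *Nfkbiz* encodes IκBζ, an inducible co-factor for a secondary set of inflammatory genes, and had the largest genotype difference of the 10 members. Its level was 72.8, 144 and 63.5 CPM in GRdim/dim replicates 1, 2 and 3 and 56.1, 61.6 and 73.8 CPM in GR+/+. GRdim/dim replicate 2 stood above the other 5 libraries, and replicates 1 and 3 lay within the range of GR+/+. The log2 fold change of 0.55 ± 0.28 (95% interval −0.08 to 1.18) did not pass the test (edgeR adjusted *p* = 0.587, unadjusted *p* = 0.0813, exact permutation *p* = 0.3, two-sided). It fell to 0.10 without GRdim/dim replicate 2. Over 12 other settings it stayed above 0, had an unadjusted *p* under 0.05 in 4 of them, and had adjusted *p*-values from 0.225 to 0.933.

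*Bcl3* encodes a nuclear IκB protein that works with p50 and p52 homodimers and is itself induced by cytokines. It measured 83.9, 53.7 and 166 CPM in the GRdim/dim replicates and 99.5, 87.0 and 71.1 CPM in the GR+/+ replicates. As in *Nfkb2* and *Relb*, the highest library was GRdim/dim replicate 3 and the lowest GRdim/dim replicate 2. The log2 fold change was 0.24 ± 0.35 (95% interval −0.53 to 1.01; edgeR adjusted *p* = 0.904), and it ranged from −0.32 without GRdim/dim replicate 3 to 0.54 without GRdim/dim replicate 2.

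Several members varied widely among the 3 GRdim/dim lungs, although the median SD of log2 CPM there was 0.291 for the members and 0.306 for all genes tested. Within GRdim/dim, the highest library exceeded the lowest 3.10-fold in *Bcl3*, 2.26-fold in *Nfkbiz*, 1.99-fold in *Nfkb2* and 1.95-fold in *Relb*. Within GR+/+ the same ratios were 1.40, 1.32, 1.29 and 1.32. The SD of log2 CPM over the GRdim/dim libraries was larger than that of 93% of all genes tested for *Bcl3*, 86% for *Nfkbiz*, 76.4% for *Nfkb2* and 75.2% for *Relb*. At the other end, *Tnfaip3* had a smaller SD in GRdim/dim than all but 1.44% of genes. A larger SD in GRdim/dim than in GR+/+ was not particular to the members, since it was present in 6 of the 10 and in 61.7% of all genes. These 5 genes were singled out after their values were seen, and the spreads are a description without a test.

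**Figure D3:**
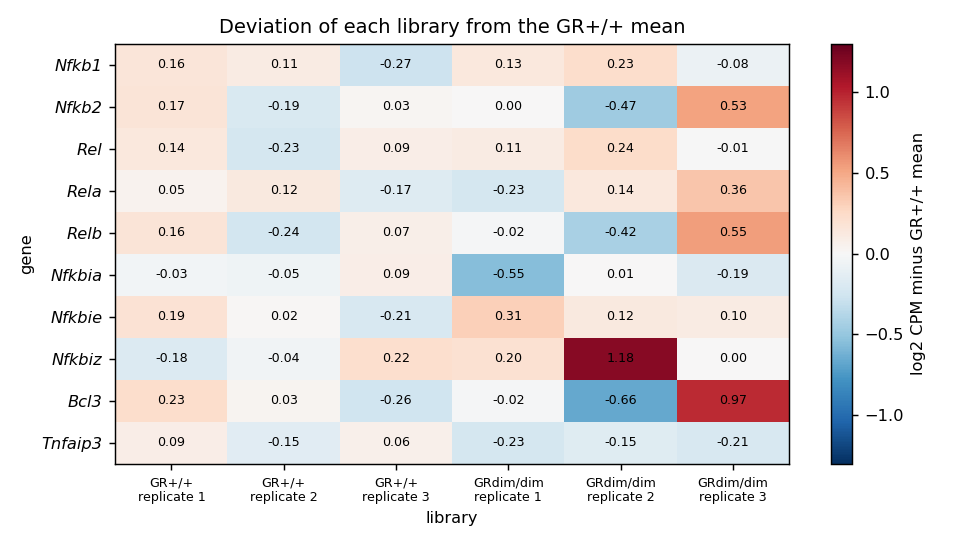
Log2 CPM of each member in each library minus the GR+/+ mean of that gene, written in the cells and colored from blue (lower) to red (higher). *Nfkb2*, *Relb* and *Bcl3* are positive in GRdim/dim replicate 3 and negative in GRdim/dim replicate 2, where *Nfkbiz* has the highest value of all, 1.18.

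*Nfkb2* and *Relb* followed each other closely. After each gene's log2 CPM was centred on its own mean over the 6 libraries, the root mean square difference between the pair was 0.03, and 0 of all other genes tested was closer to either. The nearest genes outside the 10 members were *B4galt2* for *Nfkb2* (0.05) and *Cebpzos* for *Relb* (0.06). The ratio of *Nfkb2* to *Relb*, in TPM (counts divided by gene length and scaled to a common total), stayed between 1.78 and 1.90 in all 6 libraries. *Bcl3* was less closely tied to the pair, with a difference of 0.24 from *Nfkb2*, 82 genes closer to it than that, and *Chgb* the nearest (0.10). *Relb* and *Bcl3* lie 179.0 kb apart on chromosome 7 and *Nfkb2* lies on chromosome 19.

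For the other members the nearest gene outside the 10 was *Atp8b2* for *Nfkb1* (0.03), *Cln8* for *Rel* (0.04), *Prpf40b* for *Rela* (0.03), *Purg* for *Nfkbia* (0.05), *Etv6* for *Nfkbie* (0.03), *Camk4* for *Nfkbiz* (0.05) and *Aldh3a2* for *Tnfaip3* (0.04). *Rela* and *Nfkbia*, a subunit and its inhibitor, were less alike, with a difference of 0.24. With 6 libraries and 16568 genes a close neighbor exists for almost any profile, and these distances are given as a description.

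Levels can be compared between genes only per length, and TPM were used for this, with the gene lengths deposited beside the counts. *Nfkbia* was the most abundant member with 414 ± 61.0 TPM (mean ± SD over all 6 libraries), and its lowest library, 328 TPM, was above the highest of *Rela*, 252 TPM. *Rela* had 224 ± 36.3 TPM and made up 56.1% ± 5.50 of the summed subunit TPM in GRdim/dim and 55.7% ± 3.89 in GR+/+ lungs (SD, n = 3). *Bcl3* followed at 108 ± 41.6 TPM, *Nfkb2* at 83.3 ± 18.7 TPM, *Relb* at 45.4 ± 9.98 TPM, *Nfkbiz* at 44.7 ± 18.2 TPM and *Nfkb1* at 37.4 ± 7.58 TPM. From *Rela* down to *Nfkb1*, each gene overlapped with its neighbor in this order. A gap then separated *Nfkb1*, with at least 25.1 TPM, from *Tnfaip3*, with at most 23.6 TPM. *Tnfaip3* (18.8 ± 2.63 TPM), *Nfkbie* (14.3 ± 2.82 TPM) and *Rel* (10.5 ± 1.51 TPM) again overlapped with their neighbors.

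**Figure D4:**
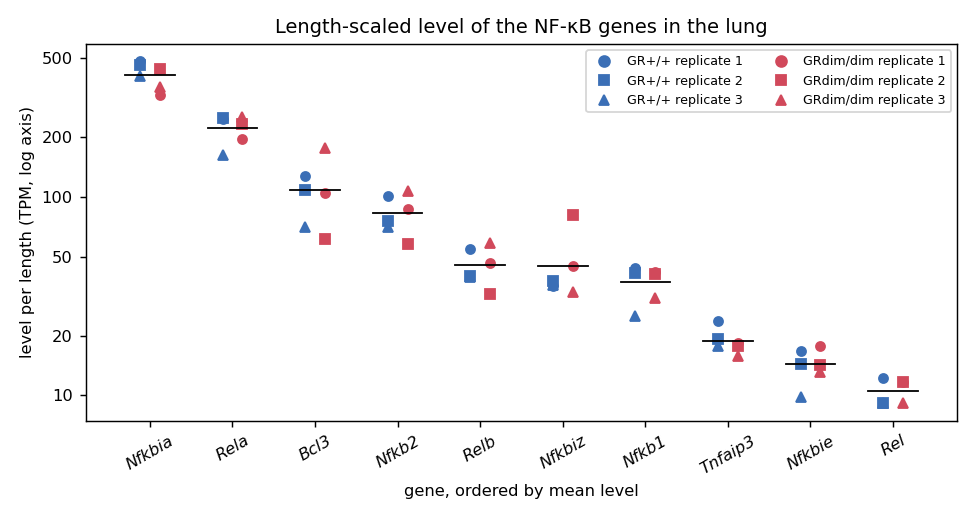
Length-scaled level of each member in TPM on a log axis, ordered by the mean over the 6 libraries (black line), with GR+/+ in blue and GRdim/dim in red and one symbol per replicate. *Nfkbia* lies above all other members, and *Rel* has the lowest mean.

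A ratio of inhibitor to subunit mRNA was computed as the summed TPM of *Nfkbia* and *Nfkbie* over that of the 5 subunits. *Nfkbib*, another IκB family gene that was tested, was not part of it. The inhibitor sum was mostly *Nfkbia*, with a mean of 414 TPM against 14.3 TPM for *Nfkbie*. This ratio was 0.899, 1.21 and 0.814 in GRdim/dim replicates 1, 2 and 3 and 1.09, 1.14 and 1.35 in GR+/+. The means were 0.975 ± 0.210 and 1.20 ± 0.137 (SD, n = 3), and GRdim/dim replicate 2 lay within the GR+/+ range, so the groups overlapped. The summed TPM of *Nfkb2* and *Relb* over that of *Nfkb1*, *Rela* and *Rel* was 0.472 ± 0.137 in GRdim/dim and 0.485 ± 0.0894 in GR+/+. Both ratios depend on the lengths used. For *Rela* the deposited length was 2716 bases where the exons of GENCODE M21 cover 3072, and for *Nfkb2* it was 3289 where they cover 4584.

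All 10 genes were counted on GRCm38. *Nfkb1* lies on chromosome 3 (135584655 to 135691547, minus strand), *Relb* on chromosome 7 (19606217 to 19629438, minus strand) and *Nfkbiz* on chromosome 16 (55811375 to 55838899, minus strand). *Rela* lies on chromosome 19 (5637483 to 5648130, plus strand), where *Nfkb2* also lies (46304737 to 46312090, plus strand). In GENCODE M21, exons of *Nfkb2* share 531 bases with *AC114539.1* and 299 bases with *Psd*, both on the opposite strand. Those of *Bcl3* share 161 bases with *Gm16175* there. The deposited *Nfkb2* differs from GENCODE M21 in coordinates and length, so the bases shared in the counted gene may differ. *AC114539.1* was not found by symbol among the deposited counts. The use of strand in counting was not given in the sources used here, so reads from any shared stretch cannot be assigned to one gene. *Psd* had 430 to 843 counts per library and *Gm16175* had 6 to 18.

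The rest of the pathway was examined by lists of genes grouped by role. A list of 12 other genes held IκB family members, IκB kinase subunits, and related or upstream kinases with their adaptors. Of these, 0 were DEGs by edgeR or DESeq2, and their median log2 fold change was 0.002. At an unadjusted *p* under 0.05, 0 passed by edgeR and 1 by DESeq2, *Nfkbid*, which encodes the nuclear protein IκBNS. *Nfkbid* was at 8.20, 12.8 and 8.91 CPM in GRdim/dim and at 5.32, 9.05 and 3.18 CPM in GR+/+ (log2 fold change 0.78 ± 0.38, edgeR adjusted *p* = 0.559, DESeq2 adjusted *p* = 0.443). The kinase subunit gene *Ikbkb* had a log2 fold change of 0.24 ± 0.17, *Tab2* of 0.27 ± 0.21 and *Tbk1* of −0.14 ± 0.15, with edgeR adjusted *p*-values of 0.727, 0.757 and 0.847.

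Of 23 receptor adaptors and ubiquitin ligases, 0 were DEGs by either tool and the median log2 fold change was 0.08. At an unadjusted *p* under 0.05 by edgeR, 2 were higher in GRdim/dim, *Myd88* and *Birc2* (8.7%, against 4.91% of all genes), and 1 was lower, *Card10* (4.35%, against 4.68%). *Myd88*, the adaptor of interleukin-1 and Toll-like receptors, was at 93.6, 75.8 and 89.2 CPM in GRdim/dim and 67.4, 68.9 and 58.1 CPM in GR+/+, without overlap (log2 fold change 0.41 ± 0.16, edgeR adjusted *p* = 0.456). In this list 4 genes (17.4%) had genotypes that did not overlap, against 14.8% of all genes. *Traf5*, next by *p* in this list, had a log2 fold change of 0.49 ± 0.22 (edgeR adjusted *p* = 0.528). Of 19 negative regulators, 0 were DEGs by either tool, and the median was 0.01. At an unadjusted *p* under 0.05 by edgeR, *Nlrc5* was higher (5.26%, against 4.91% of all genes) and *Pdlim2* lower (5.26%, against 4.68%). *Pdlim2*, which targets nuclear p65 for degradation, was at 131, 115 and 199 CPM in GRdim/dim and 231, 218 and 214 CPM in GR+/+ (log2 fold change −0.58 ± 0.21, edgeR adjusted *p* = 0.431). For *Nlrc5* the log2 fold change was 1.21 ± 0.45 (edgeR adjusted *p* = 0.437), with 59.7 CPM in GRdim/dim replicate 1 and 10.2 to 24.6 CPM in the other 5 libraries, and it was 0.52 without that library. *Usp18* and *Rnf11*, next by *p*, had log2 fold changes of 0.59 ± 0.31 and 0.29 ± 0.16 (edgeR adjusted *p* = 0.589 and 0.602).

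Of 40 genes that NF-κB is known to transcribe 38 were tested, with a median log2 fold change of 0.31 against 0.10 for the members and 0.01 for all genes. By edgeR 0 of the 38 were DEGs, and by DESeq2 2 were. At an unadjusted *p* under 0.05 by edgeR, 7 (18.4%, against 4.91% of all genes) were higher in GRdim/dim. These were *Pim1*, *Il1b*, *Ier3*, *Lcn2*, *Nos2*, *Cd83* and *Ccl4*. Lower were 2 (5.26%, against 4.68%), *Ccl20* and *Sele*. *Pim1*, a survival kinase, was at 118, 150 and 156 CPM in GRdim/dim and 87.0, 90.8 and 74.1 CPM in GR+/+ (log2 fold change 0.75 ± 0.17, edgeR adjusted *p* = 0.175, DESeq2 adjusted *p* = 0.0286). *Il1b*, which encodes the cytokine interleukin-1β, was at 73.2, 69.1 and 52.6 CPM against 48.2, 32.9 and 30.2 CPM (log2 fold change 0.81 ± 0.22, edgeR adjusted *p* = 0.262). *Ier3* had a log2 fold change of 0.57 ± 0.17 (edgeR adjusted *p* = 0.312). The chemokine gene *Ccl20* was at 9.06, 4.03 and 3.81 CPM against 15.9, 13.7 and 16.9 CPM (log2 fold change −1.46 ± 0.34, edgeR adjusted *p* = 0.185, DESeq2 adjusted *p* = 0.00305). The study also counts *Ccl20* among the GR target genes it reports as reduced in these libraries. The direction of *Ccl20* is therefore not independent evidence. Whether the targets' median differs from that of the members was not tested.

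**Figure D5:**
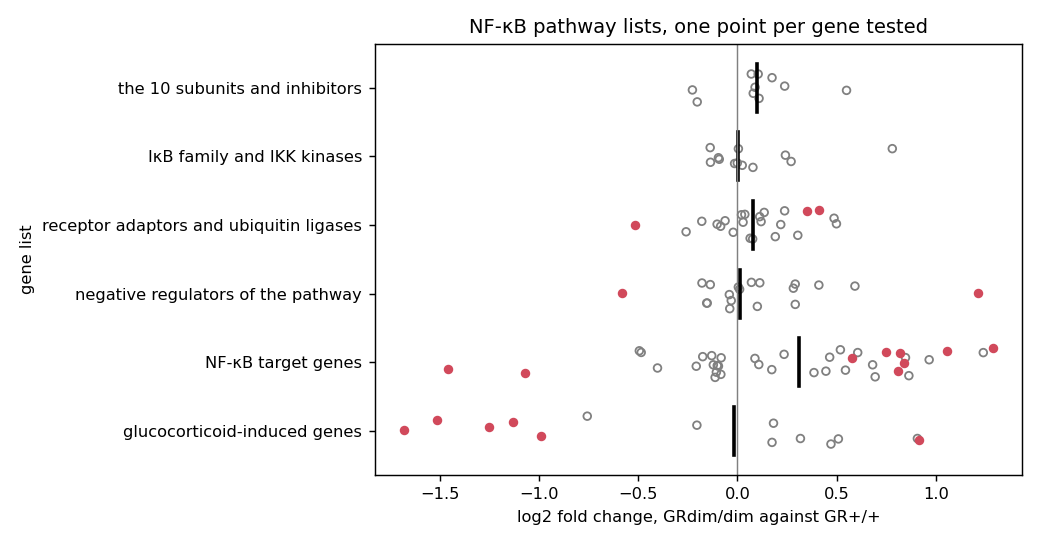
Log2 fold change, GRdim/dim against GR+/+, of each gene tested in the members and in 5 pathway lists, with filled red points for an unadjusted *p* under 0.05 by edgeR and a black line at each list's median. The members lie within −0.23 and 0.55 and, like the IκB family and kinase list, hold no filled point. Filled points stand on both sides of 0 in the other lists, namely adaptors and ubiquitin ligases, negative regulators, targets and glucocorticoid-induced genes.

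Glucocorticoid-induced genes were set beside the members because *Nfkbia* and *Tnfaip3* are known to be induced by glucocorticoids too. Of 14 other such genes, *Pdk4*, an inhibitor of pyruvate oxidation, was a DEG. Its level fell from 72.1, 62.0 and 65.4 CPM in GR+/+ to 25.1, 21.1 and 23.8 CPM in GRdim/dim (log2 fold change −1.51 ± 0.17, edgeR adjusted *p* = 0.00931). At an unadjusted *p* under 0.05 by edgeR, 5 of the 14 (35.7%, against 4.68% of all genes) were lower, *Pdk4*, *Fkbp5*, *Klf9*, *Tsc22d3* and *Zbtb16*. Higher was 1 (7.14%, against 4.91%), *Cebpd*, and the median over the list was −0.01. DESeq2 called 5 of the 14. The log2 fold changes of *Fkbp5*, *Klf9* and *Tsc22d3* were −1.25 ± 0.25, −1.13 ± 0.24 and −0.99 ± 0.23 (edgeR adjusted *p* = 0.103, 0.131 and 0.175), and all 3 were lower in every GRdim/dim library than in any GR+/+ library. In the list, 5 of the 14 (35.7%) had genotypes that did not overlap, against 14.8% of all genes. The study picked some of these genes on these libraries, so their direction is not independent evidence. The log2 fold changes of all 14 ran from −1.68 to 0.92, and 7 were above 0. All 10 members lay within that wide range, so lying in it is not particular to *Nfkbia* or *Tnfaip3*. The log2 fold changes of *Nfkbia* and *Tnfaip3* were −0.23 and −0.20, and their 95% intervals end at −0.64 and −0.56 on the lower side. Whether *Nfkbia* and *Tnfaip3* differ from the list was not tested.

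In whole lung tissue, fewer cells of a type and less RNA per cell cannot be told apart. *Rel*, *Relb* and *Nfkb2* are known to be expressed in lymphoid cells. At an unadjusted *p* under 0.05 by edgeR, 6 of 10 B cell, 6 of 12 T cell and 4 of 7 NK cell markers were higher in GRdim/dim. Of all genes, 4.91% were higher at that threshold. Of these markers, 0 were DEGs by edgeR and 1, a T cell marker, was by DESeq2. The median log2 fold changes of the B, T and NK cell markers were 0.89, 0.78 and 1.04, and none was listed at 0 in all libraries. The summed B cell markers were 79.2 to 130 CPM in GRdim/dim and 36.5 to 85.6 CPM in GR+/+, and *Cd79b* among them had a mean level of 16.9 CPM in GRdim/dim. The summed T cell markers, led by *Il7r* and *Lck*, were 91.4 to 128 CPM and 49.2 to 87.4 CPM. The summed NK cell markers, led by *Gzma* and *Nkg7*, were 25.8 to 39.3 CPM and 8.25 to 21.5 CPM.

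GRdim/dim replicate 2, the library with the highest *Nfkbiz* and the lowest *Nfkb2*, *Relb* and *Bcl3*, had the highest sum of all 3 lymphoid lists. Neutrophil markers, led by *S100a9* and *S100a8*, summed to 1114 CPM in GRdim/dim replicate 1, where *Nfkbia* was lowest, and to 274 to 519 CPM in the other 5 libraries. Of the 7 neutrophil markers tested, 2 (28.6%, against 4.91% of all genes) were higher at an unadjusted *p* under 0.05 by edgeR. By DESeq2 2 were DEGs. Alveolar macrophage markers, led by *Chil3* and *Mrc1*, summed to 213 to 302 CPM in GRdim/dim and 362 to 427 CPM in GR+/+. *Chil3* averaged 138 CPM in GRdim/dim and 253 CPM in GR+/+, whereas *Mrc1* averaged 46.5 and 47.5 CPM. Of the 8 macrophage markers, 1 (12.5%, against 4.68% of all genes) was lower at an unadjusted *p* under 0.05 by edgeR, and 1 was a DEG by DESeq2. The alveolar type 2 markers *Sftpc*, *Sftpb* and 3 others summed to 23572 CPM in GRdim/dim replicate 3, where *Nfkb2*, *Relb* and *Bcl3* were highest. They summed to 22354 CPM in GR+/+ replicate 3. In that library *Bcl3* was the lowest of its genotype, and *Nfkb2* at 94.8 CPM and *Relb* at 62.7 CPM lay between the other GR+/+ libraries. No marker of alveolar type 2 cells, of alveolar type 1 cells (*Ager*, *Hopx*), of club cells (*Scgb1a1*, *Cyp2f2*) or of fibroblasts (*Pdgfra*, *Col1a2*) passed an unadjusted *p* under 0.05 by edgeR, whereas by DESeq2 1 alveolar type 1 and 1 fibroblast marker did. Among 6 endothelial markers, led by *Cdh5* and *Pecam1*, 1 was higher and 1 lower at that threshold by edgeR (16.7% each), and 1 was a DEG by DESeq2. The part of these cell types in the members' values was not tested.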

How the data were processed

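Lung tissue of 3 GR+/+ and 3 GRdim/dim mice was sequenced as poly(A)-captured RNA, one library per mouse, and grouped by the genotype in the sample labels. Per the file headers and values, the authors deposited unnormalized whole-number counts of reads for each gene, with gene symbols, coordinates and lengths. The submitters' processing notes name mm10 and DESeq2. The aligner, the counting tool and the use of strand are not given in the sources used here.

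The count test was the quasi-likelihood test of edgeR 4.0.16 in R 4.3.3. Low genes were removed by filterByExpr, libraries were scaled by TMM, glmQLFit was run with the robust option, and the *p*-values of glmQLFTest were adjusted by the Benjamini-Hochberg method over 16568 genes. DESeq2 1.42.0 was the alternative. Genotypes were compared over all 6 libraries without covariates. CPM use library totals multiplied by their TMM factor, and log2 CPM have a prior count of 2. Standard errors and 95% intervals of fold changes come from the edgeR fit. TPM were computed from the deposited counts and gene lengths. Exact permutation tests took all 20 assignments of the libraries. The procedure was checked on 5 simulated data sets with 200 changed genes each.

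Libraries of a genotype differed by 20.7 to 73.5 in chi-square per degree of freedom, so none was counted as a duplicate. Total counts were 15687734 to 32082940 per library. Promoter sequences were matched by symbol to RefSeq windows on GRCm38, and gene coordinates were compared with GENCODE M21, where 9 of 10 members were identical and *Nfkb2* differed. Coordinates are those deposited.

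The members, gene lists and tests were chosen with earlier results of these data known. Named genes were every member, the DEGs and the 4 smallest unadjusted *p*-values of each pathway list, the 2 most abundant genes of each marker list, and the nearest gene to each member by profile. One gene that this rule names is not reported here. Other genes with an unadjusted *p* under 0.05 in a pathway list are named without further values. The alternatives were RLE scaling, no filter or at least 10 counts in every library, DESeq2, a replicate block, a covariate for sex-linked expression, no fold-change threshold, counts not divided by length, and each library left out in turn.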

Additional observations from a re-analysis of the deposited data

How the results depend on the processing

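The number of member DEGs was 0 under every setting tried. *Nfkbiz* had an unadjusted *p* under 0.05, and so made 1 such member, without the filter on low counts, with the covariate for sex-linked expression, and without GRdim/dim replicate 1 or 3, and leaving out each library gave 0 to 1 such members. Of 120 values of members under other settings, 10 had the opposite sign. With the covariate for sex-linked expression, the log2 fold change was −0.15 in *Nfkb2*, −0.12 in *Relb* and −0.15 in *Bcl3*. Leaving out each library in turn gave −0.035 to 0.17 for *Nfkb1*, −0.22 to 0.28 for *Nfkb2*, −0.037 to 0.26 for *Rela*, −0.21 to 0.28 for *Relb* and −0.32 to 0.54 for *Bcl3*. The sign turned without GRdim/dim replicate 3 in *Nfkb2*, *Rela*, *Relb* and *Bcl3*, without GR+/+ replicate 2 in *Nfkb2* (−0.01) and *Relb* (−0.02), and without GR+/+ replicate 3 in *Nfkb1*. None of these values passed the test, and the cause was not tested.

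The 28 DEGs of all genes became 522 without a filter and 274 by DESeq2, and 4 to 22 with each library left out, which also leaves fewer samples. Genes with an unadjusted *p* under 0.05 numbered 1590, and 2813 without a filter. In the pathway lists, 1 DEG became 13 without a filter, 7 by DESeq2, 2 with the sex-linked covariate and 0 to 2 with each library left out. It was lost without GR+/+ replicate 1 or 2, where *Pdk4* had an edgeR adjusted *p* of 0.0506 and 0.0507. The 20 listed genes with an unadjusted *p* under 0.05 became 31 without a filter and 13 to 22 with each library left out, lowest without GR+/+ replicate 3. Without division by gene length, 5 members changed their place in the order of levels, and the ratio of classical inhibitors to subunits was 0.407 in GRdim/dim and 0.499 in GR+/+.

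The replicate numbers were not treated as pairs in the main fit. Deviations of same-numbered libraries correlated at 0.218, 0.0361 and −0.0548. These were not compared with differently numbered libraries, so they cannot exclude a pairing. A replicate block gave 34 DEGs, of which 0 were members. With 3 mice per genotype, unequal sexes and no unshocked controls, these data bound the members' genotype differences by the 95% intervals given above and say nothing about NF-κB protein or its activity.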
